A study of Mus musculus with 9 samples.

Results

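The calmodulin, CaMKII and calcineurin genes were examined in hippocampal RNA-seq data from N4 Ube3a m-/p+ mice given Ant-134 or a scrambled control (Scr). Members were the rows of the deposited count table named Calm2, Calm3, Camk2a, Camk2b, Camk2d, Camk2g, Ppp3ca, Ppp3cb and Ppp3r1. These were 9 of the 54532 genes in the table, and all 9 passed the filter on low counts, which kept 19782 genes in all.

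Every mouse carried a maternal deletion of Ube3a with an intact paternal copy, in a line backcrossed onto an inbred background that makes them susceptible to sound-induced seizures. At postnatal day 21, 5 mice received an intracerebroventricular injection of 0.5 nmol Ant-134, a locked nucleic acid oligonucleotide antagonist of the microRNA miR-134, and 4 littermates received Scr at the same dose. Both groups were given an audiogenic stimulus on postnatal days 22, 24 and 26. The hippocampus on the injected side was taken 24 h after the last test, on postnatal day 27. The paper reports milder seizures in Ant-134 mice, some with none on the first day, and a non-significant trend to better survival. Treatment and seizure load therefore cannot be told apart in these samples. Each sample is 1 hippocampus of 1 mouse, so the comparison is between treatments within mutant, seizure-tested animals, and neither wild-type nor untested mice enter it.

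Calmodulin is the main calcium sensor of neurons, and several genes encode the same protein. Calcium-loaded calmodulin activates both CaMKII, a holoenzyme kinase assembled from α, β, γ and δ subunits that is concentrated at excitatory synapses and needed for long-term potentiation, and calcineurin, a phosphatase made of a catalytic and a regulatory subunit that takes part in long-term depression and dephosphorylates NFAT transcription factors. In mouse models of Angelman syndrome, the disorder caused by loss of maternal UBE3A, hippocampal CaMKII has been a recurring object of study because of its altered phosphorylation, a protein state that RNA counts do not measure.

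Ant-134 binds miR-134, and a microRNA pairs through its seed with complementary sites in 3′ UTRs, so the seed is shown first and then each site in the longest annotated 3′ UTRs of the 9 genes. The mature sequence is from RefSeq (GRCm38.p6, chr12:109734145-109734166, plus strand), with bases 2 to 8 in capitals. The sites are from GENCODE M21 transcripts (GRCm38), with the 7 matching bases in capitals.
mmu-miR-134-5p: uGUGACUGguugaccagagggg
Ppp3r1 site (chr11:17199448-17199454, plus strand): attttgtccatAGTCACAtctttaaaatt
Camk2d first site (chr3:126844092-126844098, plus strand): cttctctcttgAGTCACAgtagtatcctt
Camk2d second site (chr3:126845218-126845224, plus strand): ccagtacatagCAGTCACcctagatgcta
The letters searched on the transcript strand were CAGTCAC, which pairs with bases 2 to 8, and AGTCACA, which pairs with bases 2 to 7 and has an A after them. Sites were found in Ppp3r1 and Camk2d, which is 2 of the 9 genes or 22.2%, against 18.2% of 21123 protein-coding genes with an annotated 3′ UTR. Neither motif was in the corresponding UTR of Calm2, Calm3, Camk2a, Camk2b, Camk2g, Ppp3ca or Ppp3cb. These matches are a description of the sequence, and binding was not measured.

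Between 28583298 and 38431058 reads per Ant-134 sample and between 31985959 and 41978113 reads per Scr sample were counted on genes. With 3 counts as the floor, this depth reaches 0.0709 to 0.107 CPM, while the least abundant of the 9 genes, Camk2d, had 1482 to 3023 counts per sample. Values are CPM, counts scaled to library size after TMM normalization, unless stated otherwise. Ube3a RNA was 85.6 to 100.4 CPM in Ant-134 samples and 87.6 to 96.6 CPM in Scr samples, which does not check the group labels because both groups have the same genotype. The labelled tissue was checked on 8 marker genes of excitatory hippocampal neurons, which were detected in all 9 samples and summed to 2392 to 2690 CPM.

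In the comparison of Ant-134 with Scr, 8 of the 9 genes had a higher estimate in Ant-134 samples, by 1.83% for Camk2a to 7.21% for Ppp3r1. The differences were small. Calm2 and Ppp3r1 passed the study's threshold, an unadjusted p below 0.05 (edgeR quasi-likelihood test), and 0 of the 9 genes passed after Benjamini-Hochberg adjustment over all genes tested. Across the table, 4.18% of the 19782 genes passed the unadjusted threshold, and 1.49% passed it in the direction of Calm2 and Ppp3r1. Of the 4046 genes at least as abundant as Camk2d, 2.15% passed in that direction. After adjustment 0% passed. DESeq2, run without the filter on low counts, called 6 of the 9 genes higher at an unadjusted p below 0.05, namely Calm2, Calm3, Camk2b, Ppp3ca, Ppp3cb and Ppp3r1. It called 1.08% of its 37435 genes and 3.66% of the 4046 abundant genes in that direction, and 0 of the 9 passed after adjustment. The median log2 fold change was 0.080 over the 9 genes, 0.0026 over all genes tested and 0.023 over the abundant genes, of which 69.5% had a higher estimate in Ant-134. Calm2 and Ppp3ca are in a list of genes that the study picked on these same samples, so their direction is not independent evidence.

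**Figure D1:**
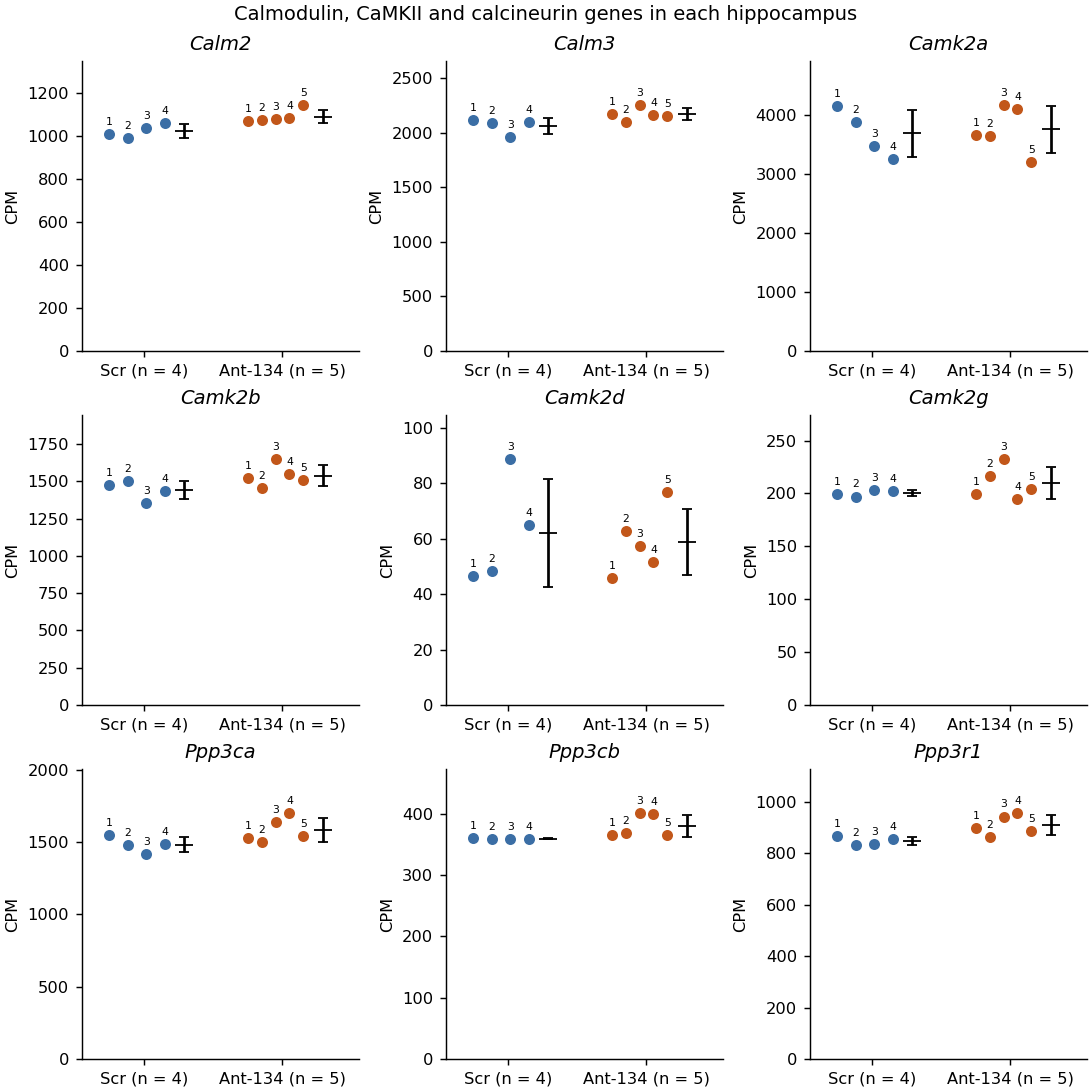
CPM of each gene in each sample, on a vertical axis that starts at 0, with Scr in blue, Ant-134 in orange, replicate numbers above the points and the mean ± SD as a black bar. Calm2 and Ppp3cb are the genes whose groups do not overlap, and Camk2a and Camk2d have the widest scatter within each group.

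Calm2 (ENSMUSG00000036438, chr17:87433412-87446935, minus strand), one of the calmodulin genes, had 1069, 1071, 1076, 1083 and 1142 CPM in Ant-134 replicates 1 to 5 and 1009, 988, 1035 and 1058 CPM in Scr replicates 1 to 4. All 5 Ant-134 samples were above all 4 Scr samples, and Ant-134 replicate 5 was highest. Means were 1088 ± 30.4 CPM (SD, n = 5) and 1022 ± 30.5 CPM (SD, n = 4), a log2 fold change of 0.090 with an SE of 0.039. Its unadjusted p was 0.0373 and its adjusted p 0.998 in edgeR, and the two-sided exact permutation test over all divisions of the samples into 5 and 4 gave its smallest possible value, p = 0.00794. The edgeR call was lost when Ant-134 replicate 2 or 5 or Scr replicate 1, 2 or 3 was left out, with p up to 0.11. It was also lost with every sample kept in edgeR without the filter on low counts (unadjusted p = 0.0585), with the Y-linked covariate (unadjusted p = 0.0559) and with a block for the replicate number (unadjusted p = 0.114). Of its 50-base stretches, 9.72% are shared with the pseudogenes Gm14480, Gm15720 and Gm7308, which had at most 3, 3 and 112 counts in a sample, so reads there could be split.

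Calm3 (ENSMUSG00000019370, chr7:16915379-16924114, minus strand), which encodes the same protein as Calm2, had 2171, 2102, 2252, 2164 and 2158 CPM in Ant-134 samples and 2116, 2092, 1957 and 2095 CPM in Scr samples. Ant-134 replicate 2 lay inside the Scr range and Scr replicate 3 was the lowest sample. Mean levels were 2169 ± 53.7 CPM (SD, n = 5) and 2065 ± 72.6 CPM (SD, n = 4). This was a log2 fold change of 0.071 with an SE of 0.039, with an unadjusted p of 0.0871 in edgeR, 0.0442 in DESeq2 and 0.0238 in the exact permutation test. Without Scr replicate 3 the log2 fold change was 0.047 (edgeR, unadjusted p = 0.287).

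Among the CaMKII genes, no member passed the threshold in edgeR. Camk2a (ENSMUSG00000024617, chr18:60925618-60988152, plus strand) encodes the α subunit, the predominant one of forebrain excitatory neurons. Its levels were 3653, 3644, 4158, 4099 and 3191 CPM in Ant-134 samples and 4144, 3876, 3461 and 3245 CPM in Scr samples. Both groups covered nearly the same range, and Ant-134 replicate 5 was the lowest of the 9 samples. The log2 fold change was 0.026 with an SE of 0.090 (edgeR, unadjusted p = 0.777), and its sign turned in 4 of the 9 fits that left out 1 sample, those without Ant-134 replicate 3 or 4 or Scr replicate 3 or 4.

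Camk2b (ENSMUSG00000057897, chr11:5969644-6066362, minus strand) encodes the β subunit, which binds F-actin and tethers the holoenzyme in spines. It had 1522, 1457, 1647, 1551 and 1509 CPM in Ant-134 samples and 1475, 1501, 1357 and 1432 CPM in Scr samples. All Ant-134 samples except replicate 2 were above the highest Scr sample. Its log2 fold change was 0.093 with an SE of 0.045, and the unadjusted p was 0.0578 in edgeR, 0.0366 in DESeq2 and 0.0635 in the exact permutation test. Without Ant-134 replicate 2 or without Scr replicate 2 it passed in edgeR, with p as low as 0.0379.

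Camk2g (ENSMUSG00000021820, chr14:20734875-20794088, minus strand) encodes the γ subunit, known for carrying calmodulin to the nucleus. It had 199.8, 216.6, 232.3, 194.8 and 204.5 CPM in Ant-134 samples and 199.4, 197.1, 203.6 and 202.1 CPM in Scr samples. Scr samples lay within the Ant-134 range. The CV was 1.43% in Scr and 7.18% in Ant-134, and the log2 fold change was 0.064 with an SE of 0.051 (edgeR, unadjusted p = 0.229). Without Ant-134 replicate 3, the highest sample, it was 0.023.

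Camk2d (ENSMUSG00000053819, chr3:126596302-126846326, plus strand) encodes the δ subunit, best known from heart muscle. Its levels were 45.9, 62.7, 57.4, 51.5 and 76.9 CPM in Ant-134 samples and 46.4, 48.3, 88.7 and 65.1 CPM in Scr samples. It was the one gene of the 9 with a lower estimate in Ant-134, and the groups overlapped widely. Its log2 fold change was −0.076 with an SE of 0.24 (edgeR, unadjusted p = 0.755), and it became 0.15 without Scr replicate 3 and 0.0011 without Ant-134 replicate 1. Camk2d holds 2 of the miR-134 sites printed above.

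The 3 calcineurin members examined here had log2 fold changes of 0.080 to 0.10. Ppp3ca (ENSMUSG00000028161, chr3:136670124-136937727, plus strand), the α catalytic subunit, had 1530, 1502, 1643, 1699 and 1542 CPM in Ant-134 samples and 1550, 1479, 1419 and 1485 CPM in Scr samples. Ant-134 replicates 3 and 4 were above every Scr sample, and the other 3 lay within the Scr range. The log2 fold change was 0.094 with an SE of 0.046, and the unadjusted p was 0.0579 in edgeR, 0.0364 in DESeq2 and 0.0794 in the exact permutation test. In edgeR it passed without Ant-134 replicate 1 or 2 or Scr replicate 1, with p as low as 0.0388.

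Ppp3cb (ENSMUSG00000021816, chr14:20499364-20546573, minus strand), the β catalytic subunit, had 365.7, 368.5, 400.6, 399.3 and 365.7 CPM in Ant-134 samples and 361.1, 359.2, 359.3 and 358.7 CPM in Scr samples. The groups did not overlap, and the Scr samples differed from each other by a CV of 0.291% against 4.81% in Ant-134. At 11052 to 15191 counts per sample, counting error alone exceeds this Scr CV, so it does not measure the spread between mice. The highest Scr sample and the lowest Ant-134 sample, at 361.1 and 365.7 CPM, lay close together. The log2 fold change was 0.080 with an SE of 0.043, and the unadjusted p was 0.0854 in edgeR, 0.0429 in DESeq2 and 0.0397 in the exact permutation test.

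Ppp3r1 (ENSMUSG00000033953, chr11:17159263-17200375, plus strand) encodes the calcium-binding regulatory subunit that pairs with either catalytic subunit. It had 897.4, 864.0, 942.6, 954.7 and 886.9 CPM in Ant-134 samples and 866.6, 833.3, 837.3 and 854.9 CPM in Scr samples. The Ant-134 samples were higher except replicate 2, which was just below Scr replicate 1. Means were 909.1 ± 38.3 CPM (SD, n = 5) and 848.0 ± 15.5 CPM (SD, n = 4). The log2 fold change was 0.10 with an SE of 0.041, and the unadjusted p was 0.0289 in edgeR, 0.00858 in DESeq2 and 0.0238 in the exact permutation test. The edgeR call was lost without Ant-134 replicate 3 or 4 or Scr replicate 2 or 3, with p up to 0.0696. Of its exonic bases, 14.3% are overlapped by Wdr92 on the same strand, which had 215 to 372 counts per sample. One miR-134 site of Ppp3r1 is printed above.

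Groups did not overlap for 2 of the 9 genes, Calm2 and Ppp3cb, against 0.647% of all genes tested in which every Ant-134 sample was above every Scr sample. The number rose to 5 genes without Ant-134 replicate 2 (Calm2, Calm3, Camk2b, Ppp3cb and Ppp3r1) and to 5 without Scr replicate 1 (Calm2, Calm3, Ppp3ca, Ppp3cb and Ppp3r1), and stayed at 2 without any other sample. Leaving out a sample can only keep or raise such a number for any set of genes. The share of all genes tested was not computed for these smaller sets, so 0.647% is not their background.

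**Figure D2:**
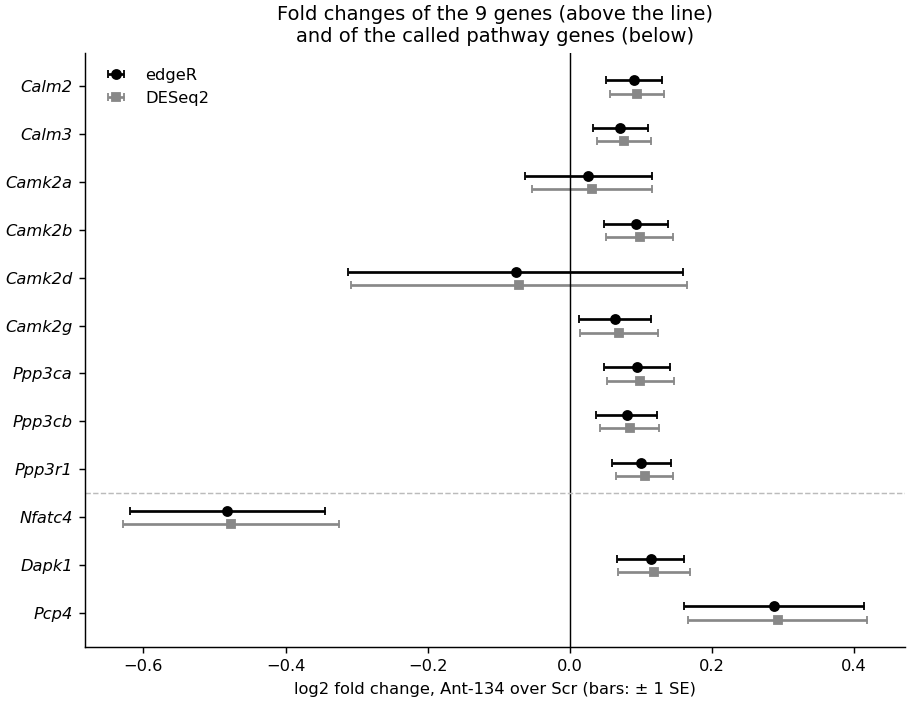
Log2 fold change of Ant-134 over Scr with ± 1 SE from edgeR (black) and DESeq2 (grey), for the 9 genes above the dashed line and the 3 called pathway genes below it. Of the 9 genes, 8 lie right of 0 and Camk2d, with the widest bar, lies left of it.

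Levels between genes were compared as FPKM, which divides counts by gene length. The order from high to low was Calm3 with 868 ± 33.4 FPKM (SD, n = 9), Calm2 with 715 ± 31.4, Camk2a with 493 ± 49.3, Ppp3r1 with 271 ± 13.3, Camk2b with 162 ± 8.77, Ppp3ca with 153 ± 8.51, Ppp3cb with 41.7 ± 1.87, Camk2g with 31.8 ± 1.84 and Camk2d with 2.66 ± 0.649 FPKM. The ranges over the 9 samples did not overlap between neighbours in this order except for Camk2b, at 147 to 179 FPKM, and Ppp3ca, at 141 to 168 FPKM. The order depends on the gene lengths used. In CPM, Camk2a was above Calm3 in every sample, and Camk2b and Ppp3ca were above Calm2 and Ppp3r1 in every sample.

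**Figure D3:**
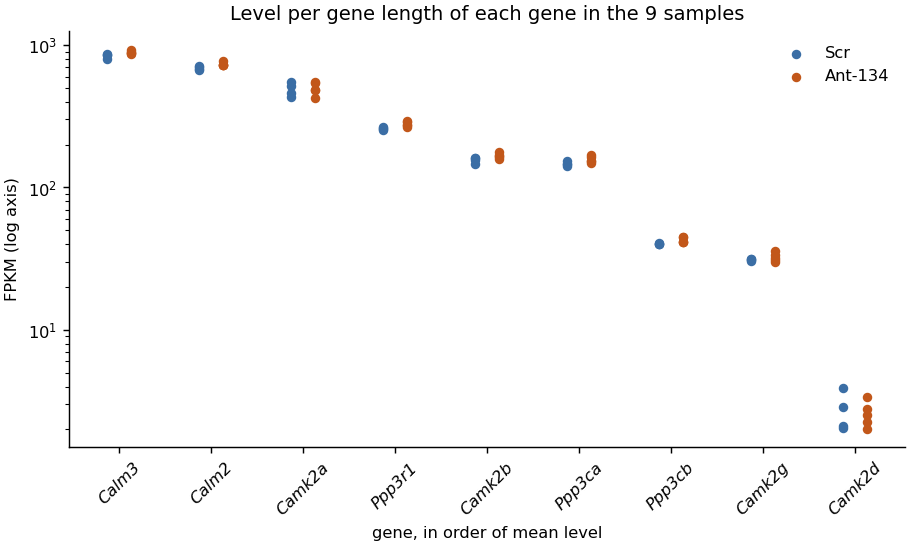
FPKM of each gene on a log axis, with genes in order of mean level and 1 point per sample (Scr blue, Ant-134 orange). The levels run from 868 FPKM for Calm3 to 2.66 FPKM for Camk2d, and the points of Camk2b and Ppp3ca share a range.

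Within the families, the group means of these shares differed by less than the SD between samples. Camk2a made up 71.0% ± 1.84 of the FPKM of the 4 CaMKII genes in Ant-134 (SD, n = 5) and 71.9% ± 1.92 in Scr (SD, n = 4), Camk2b 23.9% ± 1.44 and 23.1% ± 1.45, Camk2g 4.66% ± 0.405 and 4.60% ± 0.441, and Camk2d 0.376% ± 0.104 and 0.411% ± 0.155. The ratio of Camk2a to Camk2b, the α to β ratio of the transcripts, ran from 2.59 in Ant-134 replicate 5 to 3.44 in Scr replicate 1. Ppp3ca made up 77.7 to 79.1% of the FPKM of the catalytic genes Ppp3ca and Ppp3cb over the 9 samples. Ppp3r1 was 1.37 to 1.43 times their sum, but 0.462 times on average when computed from CPM without gene length. The share of Camk2d was likewise 1.12% without gene length, so these values depend on the gene lengths in the deposited table, which count every annotated exon.

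Variation between mice of the same group differed among the 9 genes. The mean of the CVs within Ant-134 and within Scr was 25.8% for Camk2d and 10.7% for Camk2a, which is above 99.6% and 95.6% of the genes at least as abundant as Camk2d. It was 2.55% for Ppp3cb, 2.89% for Calm2, 3.00% for Calm3 and 3.02% for Ppp3r1, against a median of 4.82% over the abundant genes. Camk2g, Ppp3ca and Camk2b, at 4.31%, 4.45% and 4.47%, were close to that median.

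The genes were then compared with each other over the 9 mice. Pearson's r of log2 CPM was positive in 29 of 36 pairs, and 9 pairs had an adjusted p below 0.05 (two-sided exact permutation over 362880 orders of the samples, Benjamini-Hochberg over the 36 pairs). With Spearman's rho 3 pairs passed. After centring within each group, which removes the difference between treatments, 3 pairs passed: Ppp3ca with Ppp3r1, Calm3 with Camk2b, and Ppp3cb with Ppp3r1. The centred values were permuted over all 9 samples without regard to the group means removed. The within-group p-values are therefore approximate and can be too small.

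Ppp3ca and Ppp3r1, which encode partners in 1 enzyme, had r = 0.94 and rho = 0.92 over the 9 samples (exact permutation p = 0.00028 and 0.0013, adjusted p = 0.010 and 0.024), and r was 0.93 within groups (adjusted approximate permutation p = 0.013). For Ppp3cb and Ppp3r1, r was 0.92 and rho 0.83 (exact permutation p = 0.0015 and 0.0083, adjusted p = 0.018 and 0.060), with 0.87 within groups. Ant-134 replicates 3 and 4 had the highest levels of Ppp3ca, Ppp3cb and Ppp3r1 alike. Without the 2 samples farthest from the median of the first gene, r was 0.92 for Ppp3ca and Ppp3r1 and 0.71 for Ppp3cb and Ppp3r1, and with 7 samples 0 of the 36 pairs passed the adjusted threshold. Calm3 and Camk2b had r = 0.95 and rho = 0.88 (exact permutation p = 0.00070 and 0.0031, adjusted p = 0.013 and 0.037), and r was 0.79 without Ant-134 replicate 3 and Scr replicate 3, their highest and lowest samples.

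Camk2a and Camk2d were related inversely, with r = −0.69 and rho = −0.67 (exact permutation p = 0.043 and 0.059, adjusted p = 0.15 and 0.16), which did not pass adjustment. Ant-134 replicate 5, Scr replicate 3 and Scr replicate 4 had the 3 lowest Camk2a levels and the 3 highest Camk2d levels. Calm2 and Camk2a had r = −0.41 and rho = −0.15 over the 9 samples (exact permutation p = 0.28 and 0.71, adjusted p = 0.39 for r), r = 0.024 without Ant-134 replicate 5 and Scr replicate 2, and r = −0.77 within groups (adjusted approximate permutation p = 0.10).

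**Figure D4:**
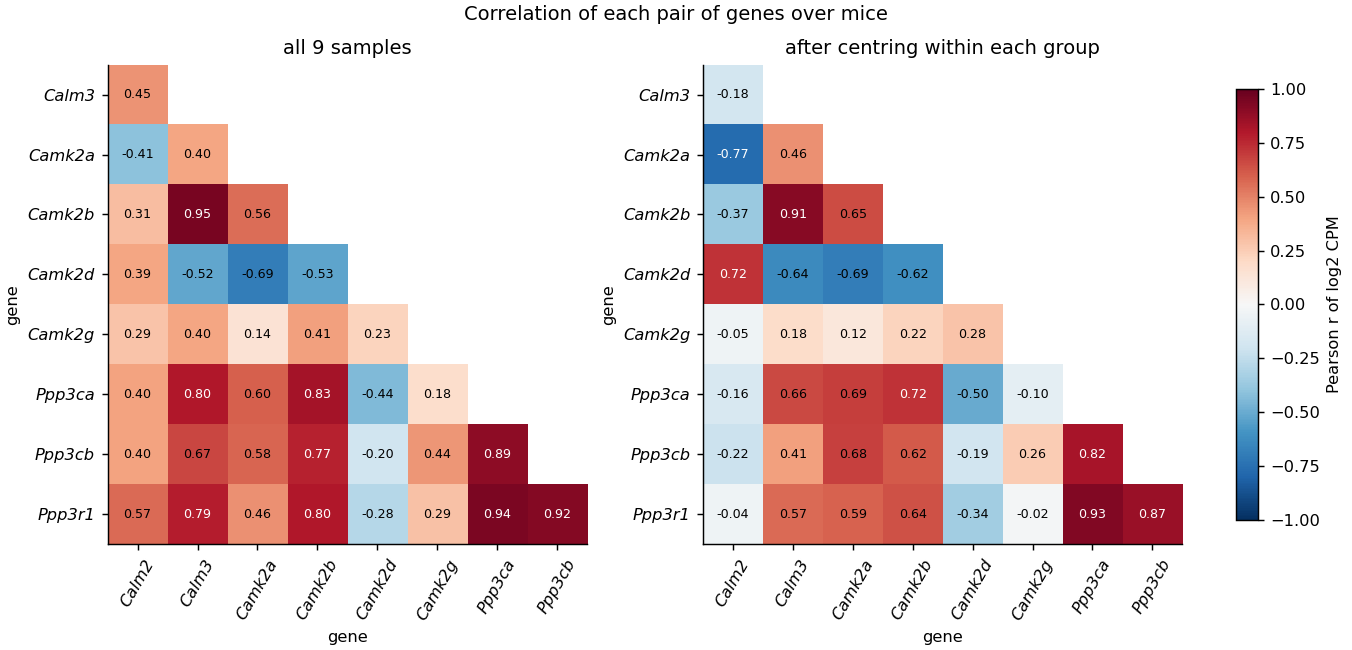
Pearson's r of log2 CPM for each of the 36 pairs, over the 9 samples (left) and after centring within each group (right), from −1 (blue) to 1 (red). The calcineurin genes form a red corner in both panels, with r of 0.89 to 0.94 on the left, and the column of Calm2 turns from mostly positive to mostly negative.

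**Figure D5:**
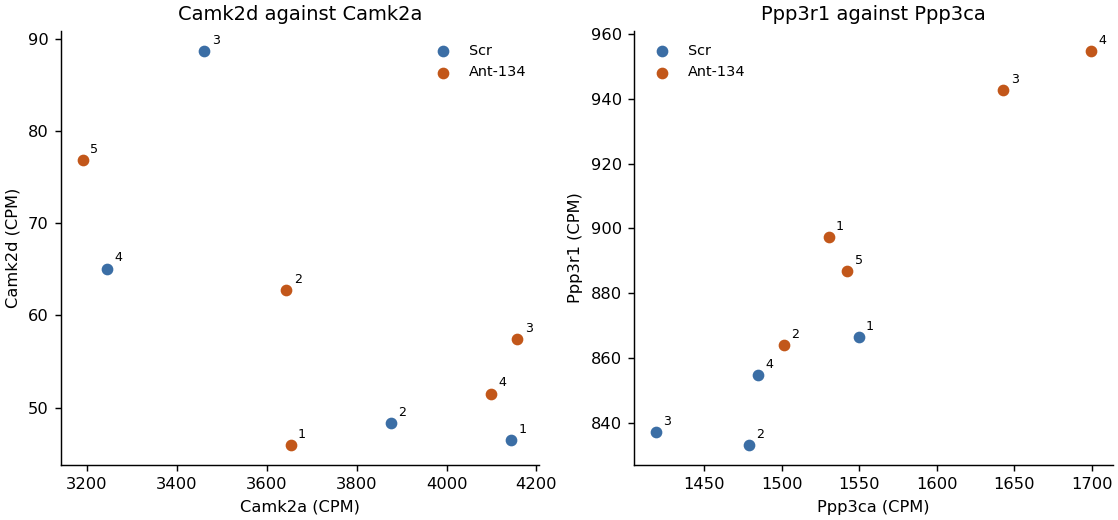
CPM of Camk2d against Camk2a (left) and of Ppp3r1 against Ppp3ca (right), 1 point per sample with its replicate number, Scr in blue and Ant-134 in orange; the axes do not start at 0. On the left the 3 samples with the lowest Camk2a are the 3 with the highest Camk2d, and on the right Ant-134 replicates 3 and 4 sit at the top.

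Cell type marker lists were summed in each sample, since in whole tissue fewer cells of a type and less RNA per cell cannot be told apart. The 8 excitatory neuron markers summed to 2497 to 2690 CPM in Ant-134 and 2392 to 2554 CPM in Scr, with 0 of 8 called in either direction. All 8 had a positive estimate, as did all 6 interneuron markers and all 7 activity-regulated genes, and 0 of these were called. A positive estimate was found for 51.2% of all genes tested and 69.5% of the genes at least as abundant as Camk2d. The excitatory neuron sum moved with Calm3 (r = 0.91), Camk2b (r = 0.89), Ppp3ca (r = 0.85), Ppp3r1 (r = 0.81) and Ppp3cb (r = 0.79), each with an adjusted exact permutation p of 0.065 over 81 relations of the 9 genes with 9 lists. In the same order rho was 0.82, 0.68, 0.87, 0.82 and 0.65 (adjusted exact permutation p = 0.15, 0.49, 0.12, 0.15 and 0.49). Without Ant-134 replicate 3 and Scr replicate 3 r fell to 0.48 for Calm3 and 0.38 for Camk2b, and was 0.81, 0.79 and 0.75 for Ppp3ca, Ppp3r1 and Ppp3cb. The 6 interneuron markers, at 639 to 762 CPM in Ant-134 and 637 to 754 CPM in Scr, moved against Camk2a (r = −0.86, rho = −0.88, adjusted exact permutation p = 0.065 and 0.12), and without Ant-134 replicate 5 and Scr replicate 4 r was −0.65. Camk2d went against the sum of 4 astrocyte markers (r = −0.77, rho = −0.88, adjusted exact permutation p = 0.14 and 0.12), and Camk2g went with the 4 hemoglobin genes (r = 0.89, rho = 0.63, adjusted exact permutation p = 0.065 and 0.51), which were highest in Ant-134 replicate 3. In this family of relations 0 passed adjustment, 11 of 81 had an unadjusted p below 0.05 for r and 7 for rho, and the relations were chosen after seeing the data.

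The 5 microglia markers summed to 244 to 272 CPM in Ant-134 and 279 to 321 CPM in Scr, with no overlap of the sums. All 5 had a negative estimate and 2 of 5 were called lower, against 2.69% of all genes tested. Calm2 was the gene whose level went most against this sum (r = −0.79, adjusted exact permutation p = 0.13), and r was −0.42 within groups. The 5 oligodendrocyte markers summed to 6794 to 11343 CPM in Ant-134 and 8519 to 9107 CPM in Scr, the 5 choroid plexus markers to 66.3 to 2550 and 78.6 to 2014 CPM, the 4 thalamus markers to 61.7 to 108 and 65.1 to 83.2 CPM with 1 of 4 called higher, and the 7 activity-regulated genes to 361 to 541 and 317 to 405 CPM. None of the defining markers in the 9 lists was at 0 in any sample, and the part of these cell types in the values of the 9 genes was not tested.

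For the gene with the highest FPKM of each family, the 3 tested genes most like it over the 9 samples were found by Pearson's r of log2 CPM among 19781 other genes, as a description. For Calm3 these were B3galt5, Rasl11b and As3mt, with r of 0.96, 0.96 and 0.95. For Camk2a they were Zfpm1, Ptk2 and Gm48606, with r of 0.95, 0.95 and 0.93, although Gm48606 had only 4 to 33 counts per sample. For Ppp3r1 they were Exog, Rai2 and Ppp3ca, with r of 0.97, 0.97 and 0.94, the last of which is its own catalytic partner.

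A list of 49 other genes of the calcium and calmodulin pathway was all tested in edgeR. Of these, 2 were called higher and 1 lower at an unadjusted p below 0.05, 46 were not called, and 0 passed adjustment, where 4.18% of all genes tested were called in either direction, 1.49% higher and 2.69% lower. Their median log2 fold change was 0.048, and 39 had a positive estimate. Over all genes tested the median was 0.0026 and 51.2% had a positive estimate. Over the genes at least as abundant as Camk2d these were 0.023 and 69.5%, so part of this lean is shared by abundant genes in general. Nfatc4, an NFAT transcription factor that calcineurin activates, was lower, at 2.80, 2.73, 2.70, 2.78 and 2.08 CPM in Ant-134 samples and 3.70, 3.83, 3.87 and 3.25 CPM in Scr samples. Its groups did not overlap, on 63 to 162 counts per sample, and its log2 fold change was −0.48 with an SE of 0.14 (edgeR, unadjusted p = 0.0033, adjusted p = 0.987). Every Ant-134 sample was below every Scr sample in 177 of the 19782 genes tested. Dapk1, a calmodulin-dependent death-associated kinase, had 166 to 179 CPM in Ant-134 and 145 to 168 CPM in Scr, with a log2 fold change of 0.11 and an SE of 0.047 (edgeR, unadjusted p = 0.0295, adjusted p = 0.998). Without Scr replicate 3, its lowest sample, the log2 fold change was 0.072 and the call was lost, and the call was also lost without Ant-134 replicate 4 or 5, at 0.10 in both fits. Pcp4, a small protein that binds calmodulin and speeds its exchange of calcium, had 17.4 to 29.7 CPM in Ant-134 and 17.1 to 19.3 CPM in Scr. Its log2 fold change was 0.29 with an SE of 0.13 (edgeR, unadjusted p = 0.0440, adjusted p = 0.998), and it was 0.15 without Ant-134 replicate 3, its highest sample, with the call also lost without Ant-134 replicate 1 or 5 or Scr replicate 1, 2 or 3. The Pcp4 call was also lost without the filter on low counts (edgeR, unadjusted p = 0.0506) and in limma on FPKM (unadjusted p from 0.0669 to 0.0754). With a block for the replicate number, the calls of Pcp4 and Dapk1 were both lost (edgeR, unadjusted p = 0.101 and 0.0667). Dapk1 and Pcp4 are in the list that the study picked on these samples.

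By group of the list, the median log2 fold change was 0.075 for 5 calmodulin and calmodulin buffer genes, 0.041 for 8 genes of the CaMK cascade, 0.036 for 8 CaMKII inhibitors and partners, 0.051 for 8 calcineurin subunits, regulators and anchors, 0.0039 for 7 calcineurin substrates and 0.054 for 13 other calmodulin-dependent enzymes and pumps. In the CaMK cascade, the CaMKII partners and the calcineurin regulators, 0 genes were called in either direction.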

How the data were processed

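Per the submitters' processing notes and the study's methods, poly-A-selected RNA was sequenced in paired-end mode, reads were mapped to GRCm38 (mm10) with HISAT2 2.0.5 and counted per gene with featureCounts 1.5.0-p3, and CASAVA 1.8 is named as well. Whether counting used strand is not given in the sources used here. The authors deposited raw counts per gene without normalization, and FPKM values, which the authors made by dividing by gene length and library total. Within a library, deposited FPKM were a single multiple, between 0.978 and 1.01, of the value computed from counts, gene length and total.

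Counts were tested with edgeR 4.0.16 in R 4.3.3 (filterByExpr, minimum count 10, TMM, quasi-likelihood with robust estimation, no covariate), Ant-134 (n = 5) against Scr (n = 4), with Benjamini-Hochberg adjustment over 19782 genes. The study's threshold, an unadjusted p below 0.05, gave the calls. Standard errors were computed from the F statistic. Single values were compared by exact permutation of mean log2 CPM, with 0.01 CPM added. Counting error follows from the totals, 28583298 to 41978113 counts per sample, with a floor of 3 counts. Floors cover counting error only, because PCR duplicates cannot be told apart. Libraries of a group differed by more than counting noise, with a chi-square per gene of 8.30 to 21.1. Each sample is a separate mouse.

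Alternatives were DESeq2 1.42.0 without a count filter, its size factors in edgeR, other count filters, a non-robust fit, a block for the replicate number, Y-linked gene levels as covariate, limma 3.58.1 on log2(FPKM + 1) or log2(FPKM + 0.1) above a mean of 0.1 FPKM or on every gene above 0, and fits without each sample in turn. A fold change on the log2(FPKM + pseudocount) scale understates the change of low genes. The tests were tried on simulated data.

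The genes and the lists were chosen with earlier results of these data known. Named genes are the 9 members, the pathway genes with an unadjusted p below 0.05 (at most 15), Ube3a, and for the gene with the highest FPKM of each family the 3 tested genes with the highest r. Markers are given as sums. Positions are from the deposited tables, and 3′ UTRs from GENCODE M21.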

Additional observations from a re-analysis of the deposited data

Results flagged for a closer look

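In 78 groups of 4 or 5 samples, 9 had a single sample farther from the others than Dixon's 95% criterion allows, and chance gives about 1 in 20, or 3.9. For Calm2 this was Ant-134 replicate 5, with 1142 CPM where the other 4 Ant-134 samples had 1069 to 1083 CPM. For Calm3 it was Scr replicate 3, with 1957 CPM where the other Scr samples had 2092 to 2116 CPM. In the same sample As3mt, one of the genes most like Calm3, had 6.92 CPM, below the 8.41 to 8.52 CPM of the rest. Nfatc4 had 2.08 CPM in Ant-134 replicate 5 and 2.70 to 2.80 CPM in the rest of its group.

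Among the summed marker lists, activity-regulated genes reached 541 CPM in Ant-134 replicate 5 and 361 to 406 CPM in the rest of the group. It is also the sample with the highest Calm2 and the lowest Camk2a. Hemoglobin genes in Ant-134 replicate 3 summed to 397 CPM against 67.6 to 113 CPM, and thalamus markers in that sample to 108 CPM against 61.7 to 72.5 CPM. Choroid plexus markers summed to 2550 CPM in Ant-134 replicate 1 against 66.3 to 675 CPM, and microglia markers to 320.5 CPM in Scr replicate 1 against 278.7 to 284.5 CPM.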

How the results depend on the processing

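The count of called genes among the 9 was 2 in edgeR, 6 in DESeq2 without a filter, 4 with DESeq2's size factors in edgeR (Calm2, Camk2b, Ppp3ca and Ppp3r1), 1 with the replicate block and 1 with the covariate of Y-linked genes (Ppp3r1 in both), and 0 to 3 when 1 sample was left out, with 0 without Scr replicate 3. Ppp3r1 was called under all 10 alternatives that kept every sample and Calm2 under 7, losing its call without a filter on low counts, with the replicate block (edgeR, unadjusted p = 0.114) and with the Y-linked covariate. Under the alternatives run, 7 to 9 of the 9 genes had a higher estimate in Ant-134 and their median log2 fold change was 0.059 to 0.093. With 1 sample left out, the log2 fold change ran from −0.029 to 0.084 for Camk2a, from −0.20 to 0.15 for Camk2d, from 0.023 to 0.088 for Camk2g, from 0.047 to 0.082 for Calm3, from 0.072 to 0.14 for Dapk1, from −0.0092 to 0.10 for Zfpm1, from −0.024 to 0.040 for Ptk2 and from −0.64 to 0.20 for Gm48606, and Ptk2 was at −0.0011 with at least 10 counts in every sample. The range of Gm48606 lacks the fits without Ant-134 replicate 3 or 4, which have no value for it. Over all genes, the calls rose from 827 to 1775 without a filter and to 1467 in limma on all genes above 0 FPKM. Calls after adjustment over all genes were 0 in edgeR, 14 without a filter, 2 with the replicate block, 16 in DESeq2 and 0 in limma, and none was among the 9. Pathway genes called were 3, and 1 to 5 with 1 sample left out. With the replicate block in edgeR the calls of Pcp4 (unadjusted p = 0.101) and Dapk1 (unadjusted p = 0.0667) were lost. Pairs of genes past adjustment fell from 9 to 3 within groups and to 0 with 7 samples. Computed from CPM without gene length, the share in the CaMKII genes was 67.8% for Camk2a and 1.12% for Camk2d, and Ppp3r1 was 0.462 times the sum of Ppp3ca and Ppp3cb. The replicate numbers did not pair the samples: deviations of same-numbered samples correlated at −0.11 to 0.0029, and 0 of 4 Ant-134 samples correlated best with their own number, so the replicate block says nothing on the size of an effect. The cause of these changes was not tested. Counting error was smallest for the abundant genes: Camk2d, the least abundant of the 9, had at least 1482 counts in a sample, whereas Gm48606 had 4 to 33.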
